A study of Mus musculus with 9 samples.

Results

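The 8 genes described here belong to the plasminogen activation system or to the serpins and cell surface proteins around it, and were followed by RNA sequencing in 9 primary 4T1 tumors: Plau, Plaur, Plat, Serpine2, Serpinb2, F3, Anxa2 and S100a10. They were found in the deposited counts by Entrez identifier from their RefSeq symbols, and all 8 of the 18755 genes in the counts were present. The choice of these genes was made with the difference between treated and vehicle-treated tumors already known, so that this difference is given for them below as a description. Where a member is said to be called, this is its place in the fit over all genes, and it is no independent evidence of the difference. All 8 members also passed the filter on low counts, which left 13966 genes to be tested.

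Plasminogen is a circulating zymogen that is cut to plasmin, a protease that dissolves fibrin and degrades extracellular matrix, by the urokinase-type activator encoded by Plau or the tissue-type activator encoded by Plat. Urokinase is held at the cell surface by its receptor, the product of Plaur, while a complex of annexin A2 (Anxa2) and its small partner S100A10 (S100a10) can bind plasminogen and tissue-type activator. Serpins, which trap a protease in a covalent complex, shut the activators off, among them PAI-2 (Serpinb2) and protease nexin-1 (Serpine2). Tissue factor (F3) is not an activator of plasminogen but the receptor that starts coagulation and so the formation of fibrin, the substrate of plasmin. In breast cancer the urokinase system is known as a tool of tumor cells and of the stroma for pericellular proteolysis.

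4T1 is a metastatic mammary carcinoma cell line of BALB/c origin, and 1000000 cells were placed into a mammary fat pad of female BALB/c mice aged 6 to 10 weeks, which have an intact immune system. Treatment began on day 15 and lasted 5 days, and of the sequenced tumors 6 had received the FAK inhibitor BI 853520 at 50 mg/kg and 3 only the 0.5% Natrosol vehicle. No group carried a transgene or a deletion, and every tumor came from this single cell line. RNA was taken from pieces of whole tumor with its host stroma and immune cells, so that fewer cells of a type and less RNA per cell cannot be told apart in any value below. Each tumor gave 1 library, and the labels do not number the mice as pairs across the groups.

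Sequencing depth, as the total of gene counts, was 21727879 to 33850245 in the vehicle group and 16931607 to 22349873 in the BI 853520 group. Levels are given as CPM, the counts scaled to library size after TMM normalization, whose factors lay between 0.984 and 1.02. Where genes are set against each other, RPKM, the same value per kilobase of the deposited gene length, is used. The members were covered by between 43 counts (Serpinb2 in a BI-treated tumor) and 33570 counts (Anxa2 in a vehicle-treated tumor), and no member came near the floor of 3 counts in any tumor. Markers of several cell types moved with the treatment, where 14.6% of all genes tested rose and 14.1% fell. Of 10 macrophage markers, 9 rose and 1 fell, with a summed level of 2720 to 3450 CPM in vehicle-treated and 4620 to 6340 CPM in BI-treated tumors. Of the 9 neutrophil markers tested, 4 fell and none rose (550 to 770 against 236 to 391 CPM), while Ly6g was not among the genes used here. Fibroblast markers rose in 2 of 10 (2000 to 3440 against 2650 to 5880 CPM), endothelial markers in 4 of 10 (209 to 234 against 232 to 330 CPM) and mast cell markers in 7 of 10, with 1 that fell (92.6 to 111 against 114 to 444 CPM). Of 10 epithelial markers, which stand for the tumor cells here, 2 fell, Krt8 and Krt18, and none rose (964 to 1190 against 760 to 969 CPM). Most of this sum came from Krt18 (mean 579 and 409 CPM) and Krt8 (478 and 394 CPM), and the median log2 fold change of the list was 0.155, so that the sum does not describe the list as a whole. The share of fibroblast markers that rose and of epithelial markers that fell was 20% each. Both are close to the shares of all genes tested, so nothing is read from these 2 counts. Some of the marker counts hung on single tumors. Fibroblast markers rose in 0 without vehicle replicate 1 or 2 and in 5 without BI replicate 3. Endothelial markers rose in 0 without vehicle replicate 3. No marker in these lists was at 0 in every tumor. What part these shifts have in the values of the members was not tested.

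The 250 bases before the transcription start are shown for the members that RefSeq's table for GRCm38.p6 holds, since most of them share a site for AP-1, the Fos and Jun family of transcription factors, whose genes are described further down. The table matched 5 of the 8 members; Plau, Plat and S100a10 had no entry. Capitals mark the letters TGANTCA, searched on both strands, where N is any base. The windows are Plaur at chr7:24462233-24462482 on the plus strand, Serpinb2 at chr1:107511173-107511422 on the plus strand, F3 at chr3:121723287-121723536 on the plus strand, Anxa2 at chr9:69453433-69453682 on the plus strand, and Serpine2 at chr1:79858666-79858915 on the minus strand.
Plaur: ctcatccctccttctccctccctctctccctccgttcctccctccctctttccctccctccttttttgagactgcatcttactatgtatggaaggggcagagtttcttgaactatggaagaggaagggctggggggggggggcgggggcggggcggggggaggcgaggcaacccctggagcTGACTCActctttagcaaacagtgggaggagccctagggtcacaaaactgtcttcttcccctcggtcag
Serpinb2: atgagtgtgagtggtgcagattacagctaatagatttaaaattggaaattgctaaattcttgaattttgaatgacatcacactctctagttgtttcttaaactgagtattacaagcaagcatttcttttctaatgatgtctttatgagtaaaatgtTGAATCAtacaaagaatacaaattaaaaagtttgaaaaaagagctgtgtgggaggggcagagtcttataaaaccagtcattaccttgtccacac
F3: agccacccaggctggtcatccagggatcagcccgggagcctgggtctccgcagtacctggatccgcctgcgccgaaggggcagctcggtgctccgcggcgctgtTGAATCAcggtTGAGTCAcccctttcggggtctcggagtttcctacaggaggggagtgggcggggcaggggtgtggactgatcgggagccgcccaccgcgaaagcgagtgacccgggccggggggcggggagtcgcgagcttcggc
Anxa2: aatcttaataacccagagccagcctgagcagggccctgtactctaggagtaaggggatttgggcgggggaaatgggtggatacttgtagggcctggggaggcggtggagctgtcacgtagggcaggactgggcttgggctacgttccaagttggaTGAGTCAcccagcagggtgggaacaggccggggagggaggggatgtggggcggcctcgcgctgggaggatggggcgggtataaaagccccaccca
Serpine2: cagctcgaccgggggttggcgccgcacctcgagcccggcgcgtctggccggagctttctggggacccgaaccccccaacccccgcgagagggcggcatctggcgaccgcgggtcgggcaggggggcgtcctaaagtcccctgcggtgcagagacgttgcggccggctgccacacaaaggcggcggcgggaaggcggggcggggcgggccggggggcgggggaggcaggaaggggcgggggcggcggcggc

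Plaur, Serpinb2 and Anxa2 each held 1 match to TGANTCA, which began at -69, -94 and -95 counted from the start. Serpinb2 had another entry with a start further downstream, whose window chr1:107511260-107511509 is not printed. Counted from that start, the same match began at -181 and TATAAA at -116. The F3 window held 2 matches, at -146 and -135, and the Serpine2 window held none. Over all 32851 promoters of the table, 6.75% of windows of this length held a match. The windows differed in make-up as well. The GC box GGGCGG was found 6 times before Serpine2, 3 times each before Plaur, F3 and Anxa2, and not before Serpinb2, against a share of 32.7% of all promoters with at least 1. The letters TATAAA, present in 12.4% of all promoters, stood at -29 before Serpinb2 and at -17 before Anxa2. No window held the letters TGACGTCA of a cyclic AMP response element, which 1.55% of all promoters hold. The GC boxes and TATAAA do not share letters with TGANTCA in these windows. These matches describe the sequence only.

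At an adjusted p of at most 0.05 in edgeR's quasi-likelihood test, 4 of the 8 members lay lower in BI-treated tumors (Plau, Plaur, Serpinb2 and Anxa2) and 0 lay higher, where 14.1% of all genes tested fell and 14.6% rose. In 3 members (Plau, Serpinb2 and Anxa2) each BI-treated tumor lay below each vehicle-treated tumor, and in 0 members above, where the shares of all genes tested were 14% below and 14.1% above. Since the members were selected on this contrast, nothing is read from these counts. The other 4 members, Plat, Serpine2, F3 and S100a10, were called in neither direction. The values in the single tumors show 3 kinds of pattern: a separation of the groups with little spread, a separation whose size or call depends on single tumors, and an overlap.

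**Figure D1:**
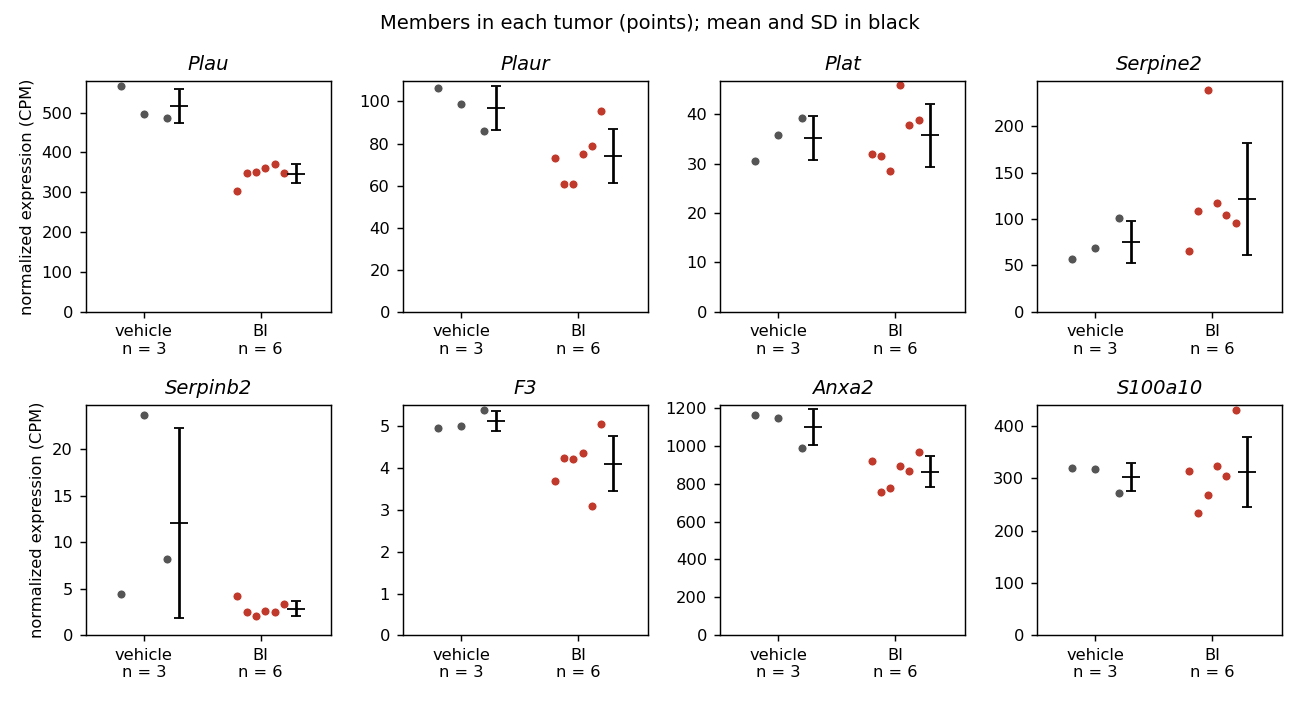
Normalized expression (CPM) of the 8 members in each tumor, with vehicle-treated tumors in grey (n = 3), BI-treated tumors in red (n = 6) and the mean with SD in black beside each group. Plau, Serpinb2 and Anxa2 show no overlap between the groups, and the tumors of Plat, Serpine2 and S100a10 overlap.

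Plau, the gene of the urokinase-type plasminogen activator, was lower in every BI-treated tumor than in any vehicle-treated tumor. It lies on mm9 at chr14:21655884-21662610 on the plus strand (Entrez 18792). Its level was 566, 497 and 487 CPM in the 3 vehicle-treated tumors, and in the 6 BI-treated tumors it ran from 303 to 370 CPM with a median of 349.9. The lowest vehicle-treated tumor was vehicle replicate 3 and the highest BI-treated tumor BI replicate 5, well below it. The mean fell from 517 ± 43.3 (SD, n = 3) to 347 ± 23.1 CPM (SD, n = 6), a log2 fold change of -0.58 with a standard error of 0.0731, or -32.9%. Plau also varied little between tumors of a group, with a biological coefficient of variation of 8.23%, below the median of 9.85% over all genes tested. BI replicate 1, at 302.7 CPM, stood below the other BI-treated tumors, which kept within 348.7 to 370.0 CPM.

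Plat, which encodes the tissue-type activator that is best known from endothelial cells, did not follow Plau. Its tumors held 30.5, 35.8 and 39.3 CPM with vehicle and 28.5 to 45.9 CPM with BI 853520 (median 34.9). The BI-treated tumors spread on both sides of the vehicle-treated ones, with 1 tumor below and 1 above all 3 of them. The log2 fold change was 0.02 with a standard error of 0.137, and its sign changed when single tumors were left out (-0.07 to 0.11). Plat lies on mm9 at chr8:23868216-23893319 on the plus strand (Entrez 18791). Per length, Plat stood at 0.0498 to 0.0747 of the level of Plau in vehicle-treated tumors. In BI-treated tumors this ratio was 0.0751 to 0.118, with a median of 0.0962. The lowest BI-treated ratio lay just above the highest vehicle-treated ratio, and since the ratio contains Plau it is not independent of the choice of members.

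Plaur, the gene of the urokinase receptor, a protein anchored in the membrane by a lipid, lay lower in most BI-treated tumors. It stood at 106, 98.6 and 85.9 CPM with vehicle and at 60.6 to 95.5 CPM with BI 853520, with a median of 74.0. Of the 6 BI-treated tumors, 5 lay below every vehicle-treated tumor, and BI replicate 6 lay within their range. The means were 97.0 ± 10.4 and 74.0 ± 13 CPM, and the log2 fold change was -0.39 with a standard error of 0.128. This difference depended on which tumors were included: with each of the 9 tumors left out in turn it was between -0.48 and -0.32, and it was called in 2 of these 9 fits, those without BI replicate 6 or vehicle replicate 3, but in none of the 7 without vehicle replicate 1, vehicle replicate 2 or one of BI replicates 1 to 5. The gene lies on mm9 at chr7:25247519-25260892 on the plus strand (Entrez 18793). Against its ligand, Plaur was at 0.296 to 0.333 of the level of Plau per length in vehicle-treated tumors and at 0.290 to 0.460 in BI-treated tumors (median 0.354). These ratios overlapped between the groups.

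Serpinb2 encodes PAI-2, a serpin that inhibits urokinase and that is largely kept inside cells such as activated macrophages. It showed the largest fold change of the members in size. The vehicle-treated tumors held 4.45, 23.7 and 8.16 CPM, and the BI-treated tumors 2.08 to 4.20 CPM with a median of 2.58. All BI-treated tumors lay below all vehicle-treated tumors, but the gap between BI replicate 1 at 4.20 and vehicle replicate 1 at 4.45 CPM was small. The mean went from 12.1 ± 10.2 to 2.89 ± 0.770 CPM, a log2 fold change of -2.06 with a standard error of 0.404. Vehicle replicate 2 carried much of its size: without that tumor the log2 fold change was -1.14, and without vehicle replicate 1 it was -2.45. Serpinb2 was called in each of the 9 fits with a tumor left out. Vehicle replicate 2 was also the tumor with the highest summed level of neutrophil markers, 769.7 CPM, and with the highest of macrophage markers among the vehicle-treated tumors, 3448 CPM, and what part these cells have in its Serpinb2 level was not tested. Serpinb2 lies on mm9 at chr1:109408000-109432055 on the plus strand (Entrez 18788), where its exons overlap those of the pseudogene Serpinb10-ps on the same strand, so that some reads could belong to either.

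Serpine2 encodes protease nexin-1, a secreted serpin that inhibits urokinase, tissue-type activator and thrombin. It was the member with the largest difference towards higher levels, and it was not called. Its values were 56.7, 68.9 and 101 CPM with vehicle and ran from 65.1 to 239.5 CPM with BI 853520, with a median of 106. Of the 6 BI-treated tumors, 4 lay above all vehicle-treated tumors, none lay below them, and BI replicate 3 stood far above the rest. The means were 75.4 ± 22.6 and 122 ± 60.4 CPM, and the log2 fold change of 0.69 had a standard error of 0.332. Leaving out BI replicate 3 lowered it to 0.38, and leaving out vehicle replicate 3 raised it to 0.95. BI replicate 3 had the lowest summed fibroblast markers of the BI-treated tumors, 2647 CPM, and the highest macrophage markers, 6339 CPM, and their part in its Serpine2 level was not tested. The gene lies on mm9 at chr1:79790772-79855271 on the minus strand (Entrez 20720). Relative to its target, Serpine2 stood at 0.114 to 0.236 of the level of Plau per length with vehicle and at 0.245 to 0.778 with BI 853520 (median 0.338). These ratios did not overlap, while those of Serpinb2 to Plau did (0.00899 to 0.0545 against 0.00677 to 0.0159). Both ratios contain Plau and so are not independent of the choice of members, and the levels of Serpine2 itself overlapped between the groups.

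F3, the gene of tissue factor, was the member with the lowest mean level per length. It was measured at 4.95, 5.01 and 5.39 CPM in vehicle-treated tumors and at 3.08 to 5.04 CPM in BI-treated tumors, with a median of 4.21. The vehicle-treated tumors lay close together, 5 BI-treated tumors lay below all of them, and BI replicate 6 fell between them. With means of 5.12 ± 0.239 and 4.10 ± 0.662 CPM, the log2 fold change was -0.32 with a standard error of 0.154. It rested on 54 to 183 counts per tumor, and F3 and Serpinb2 were the members with the fewest reads. F3 lies on mm9 at chr3:121426455-121437970 on the plus strand (Entrez 14066).

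Anxa2 and S100a10, whose proteins form a heterotetramer at the membrane, differed in their group means. Anxa2 was at 1163, 1143 and 989 CPM with vehicle and at 757 to 969 CPM with BI 853520 (median 878). The groups did not overlap, with BI replicate 6 closest to vehicle replicate 3. The means of 1098 ± 95.1 and 862 ± 82.9 CPM gave a log2 fold change of -0.35 with a standard error of 0.0902, and the call was lost without vehicle replicate 1 or vehicle replicate 2. S100a10 was at 320, 318 and 272 CPM with vehicle and at 234 to 431 CPM with BI 853520 (median 309). Its BI-treated tumors lay on both sides, 2 below and 2 above all vehicle-treated tumors, and the log2 fold change was 0.04 with a standard error of 0.150. Anxa2 lies on mm9 at chr9:69301427-69339602 on the plus strand (Entrez 12306) and overlaps Gm16144 on the minus strand. Whether strand was used in counting is not stated, and without it the reads of such a pair cannot be told apart. S100a10 lies at chr3:93359002-93368565 on the plus strand (Entrez 20194).

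The ratio of S100a10 to Anxa2 did not overlap between the groups. Per length it was 0.581 to 0.589 in the 3 vehicle-treated tumors and 0.654 to 0.941 in the 6 BI-treated tumors, with a median of 0.740. The vehicle-treated ratios were nearly equal, and every BI-treated ratio was higher. The ratio contains Anxa2, for which the members were chosen, and is therefore given without a test.

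**Figure D2:**
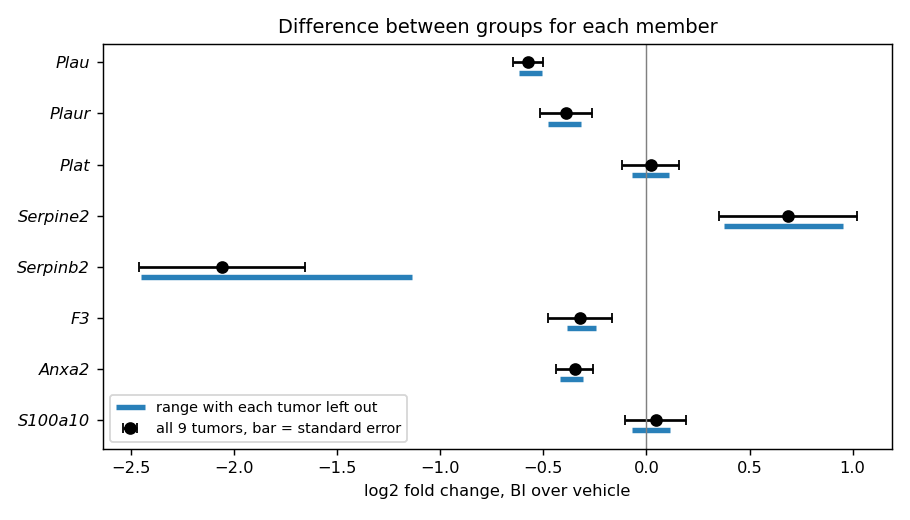
Log2 fold change of BI-treated over vehicle-treated tumors for each member (black, with the standard error) and the range when each of the 9 tumors was left out in turn (blue). Serpinb2 has the widest range, from -2.45 to -1.14, and those of Plat and S100a10 include 0.

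The levels per length ordered the members as Anxa2, S100a10, Plau, Plaur, Serpine2, Plat, Serpinb2 and F3. Anxa2 had a mean of 685 ± 104 RPKM over the 9 tumors (SD) and S100a10 of 476 ± 84.1 RPKM, and both were among the most abundant transcripts, at the percentiles 99.7 and 99.5 of all genes tested. Although their ranges overlapped (551 to 846 and 360 to 663 RPKM), Anxa2 was higher in each of the 9 tumors. Plau followed at 172 ± 38.2 RPKM, below S100a10 and above Plaur without overlap. Plaur at 58.5 ± 11.7 RPKM and Serpine2 at 51.7 ± 26.4 RPKM were not separated, as Plaur was higher in 6 tumors of 9. Plat, at 14 ± 2.17 RPKM, lay below Serpine2 in all tumors and close to the middle of all genes, at percentile 57.6. Serpinb2 (2.91 ± 3.37 RPKM) and F3 (2.37 ± 0.394 RPKM) closed the order and were not separated either, since Serpinb2 was higher in only 3 tumors. Within each tumor, urokinase was thus the more abundant activator transcript, and both serpins stood below it.

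**Figure D3:**
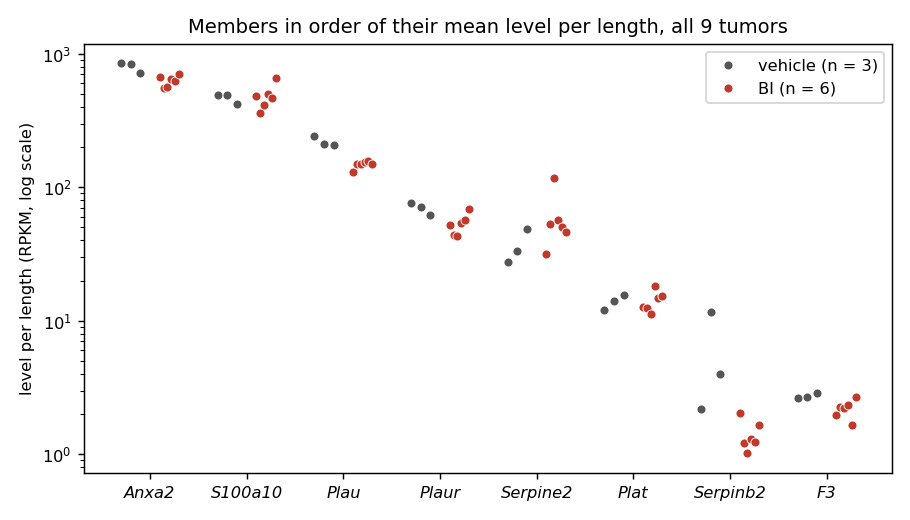
Level per length (RPKM, log axis) of each member in the 9 tumors, ordered by the mean, with vehicle-treated tumors in grey (n = 3) and BI-treated tumors in red (n = 6). Anxa2 and S100a10 lie between 360 and 846 RPKM, and Serpinb2 and F3 at 11.6 RPKM or less.

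The members also differed in how much tumors of the same group varied, a measure the treatment contrast does not enter. The biological coefficient of variation was 39.8% for Serpinb2 and 31.5% for Serpine2, at the percentiles 97.8 and 94.9 of all genes tested. It was 15.1% for S100a10, 13.9% for Plat, 13.5% for F3 and 13.2% for Plaur, all in the upper part of the distribution, and 9.64% for Anxa2. The serpins were therefore the most variable members and Plau the least. The SD of log2 CPM was 1.21 in vehicle-treated and 0.351 in BI-treated tumors for Serpinb2, and 0.420 and 0.613 for Serpine2. No test compared these SDs, and the larger SD of each serpin includes 1 high tumor. For Serpinb2 this was vehicle replicate 2, at 4.57 log2 CPM against 2.18 and 3.04 in the other vehicle-treated tumors. For Serpine2 it was BI replicate 3, at 7.90 log2 CPM against 6.03 to 6.87 in the other BI-treated tumors. For F3 the SD was 0.0655 with vehicle and 0.236 with BI 853520, which no test compared.

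The levels of 7 pairs of known partners were compared over the 6 BI-treated tumors, as the 2 treatment groups form separate clusters. Anxa2 and S100a10 varied together from tumor to tumor, with Pearson's r = 0.926 (exact permutation test, two-sided, p = 0.00417, adjusted over the 7 pairs 0.0292, n = 6). Spearman's rho was 0.943 (exact permutation p = 0.0167, adjusted 0.117), and r was 0.884 without the 2 tumors farthest from the median of Anxa2. BI replicates 2 and 3 were low in both genes and BI replicate 6 was high in both. The pair did not stand apart: Plaur and S100a10 had r = 0.946 in the same tumors. Adjusted over all 28 pairs of members, the exact permutation p for Anxa2 and S100a10 was 0.117. By deviations from the group means over the 9 tumors its r was 0.908, and genes such as Fxyd5 (0.974 with Anxa2) and Srsf4 (0.976 with S100a10) were closer. For urokinase and its receptor, Plau and Plaur, r was 0.0722 (exact permutation p = 0.883) and rho 0.0857 (exact permutation p = 0.919). For Plau and Serpinb2, r was -0.774 (exact permutation p = 0.0819, adjusted 0.287) and rho -0.543 (exact permutation p = 0.297), and without the 2 tumors farthest from the median r was -0.114, so that the relation rests on those tumors. For the other 4 pairs (Plau-Serpine2, Plat-Serpine2, Plat-Serpinb2 and Plat-Anxa2), r was 0.531, -0.311, 0.149 and 0.613, rho was 0.60, -0.257, 0.60 and 0.657, and the exact permutation p of r was 0.246, 0.589, 0.767 and 0.196. Each of these tests ran over all 720 pairings of the 6 tumors.

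**Figure D4:**
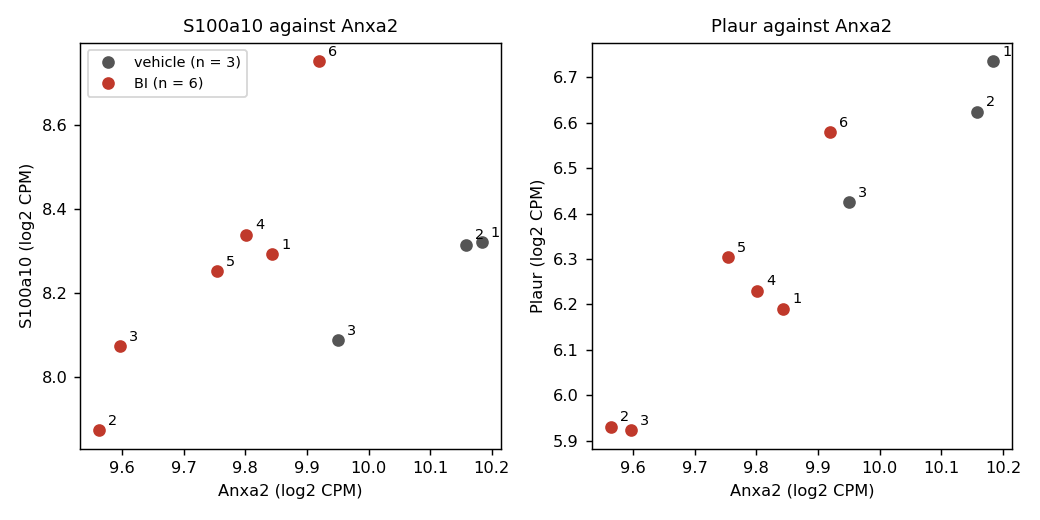
Left, S100a10 against Anxa2, and right, Plaur against Anxa2, both in log2 CPM, with 1 point per tumor numbered by its replicate within the group (grey vehicle, n = 3; red BI 853520, n = 6). Among the BI-treated tumors of the left panel, replicate 2 lies lowest and replicate 6 highest on both axes, and the vehicle-treated tumors lie to the right of them.

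The genes whose tumor-to-tumor pattern was most like that of a member were found by Pearson's r of the deviations from the group means over the 9 tumors, among about 10343 genes with a mean log2 CPM of at least 3. They included Fam189b (0.957) for Plau, Cox5a (0.975) and Cdk2ap2 (0.971) for Plaur, and Zfp516 (0.963) and 1700052K11Rik (0.961) for Plat. For the serpins they were Ddx24 (0.975) and Sulf2 (0.953) with Serpine2, and Gnpda2 (0.942) and Ccl22 (0.934) with Serpinb2. F3 was most like Gimap3 (0.954) and Gimap4 (0.933), Anxa2 most like Fxyd5 (0.974) and Tstd3 (0.972), and S100a10 most like Srsf4 (0.976) and Ndufs6 (0.972). No member was among those named for another. These are the highest of many values over few tumors that share depth and scaling, and they are given as a description.

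The other genes of the plasminogen system moved in both directions. Of 24 listed genes that are no members, 21 were in the counts and 16 were tested. Of these, 7 rose and 3 fell, or 43.8% and 18.8%, where 14.6% and 14.1% of all genes tested did. The median log2 fold change was 0.228 against -0.00371 over all genes tested. Without vehicle replicate 1, 4 rose. Among the genes that fell were Itgav, the integrin subunit that pairs with vitronectin-binding partners (-0.46, SE 0.0818, adjusted p = 0.00168), and Eno1, a glycolytic enzyme that can bind plasminogen at the cell surface (-0.41, SE 0.0731, adjusted p = 0.00176). Eno1 has near-identical copies in the genome, so that reads with a single alignment may undercount it.

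Of the genes that rose, Serping1, the C1 inhibitor that also acts on plasmin and kallikrein, went from 68.3 ± 13.6 to 116 ± 18.2 CPM (log2 fold change 0.76, SE 0.144, adjusted p = 0.00249). St14, the membrane protease matriptase that can activate pro-urokinase, went from 2.14 ± 0.343 to 4.72 ± 1.15 CPM (1.14, SE 0.233, adjusted p = 0.00392). St14 had few reads, with a mean of 0.960 RPKM over the 9 tumors, and was called in each of the 9 fits with a tumor left out. Mrc2, a collagen receptor found in complex with the urokinase receptor, went from 27.6 ± 4.24 to 40.4 ± 5.46 CPM (0.55, SE 0.127, adjusted p = 0.00811). All 3 were higher in each BI-treated tumor than in any vehicle-treated tumor. Plgrkt, a plasminogen receptor of the membrane, was modestly higher (0.24, SE 0.0733, adjusted p = 0.0268), a call that was lost without vehicle replicate 2 or vehicle replicate 3 (adjusted p at most 0.104). Lrp1, the endocytic receptor that clears complexes of activator and serpin, had a log2 fold change of 0.21 (SE 0.0855, adjusted p = 0.0839) although each BI-treated tumor lay above each vehicle-treated one. DESeq2 called Lrp1 (0.21, adjusted p = 0.0281), while the adjusted p was 0.055 to 0.217 with each tumor left out and above 0.05 with the other settings. Thbs1, the gene of the list with the highest level at 258 RPKM, was not called (-0.27, adjusted p = 0.384). Plg itself, Cpb2 and Hrg, genes expressed mainly in the liver, were not analysed here, and F12, Klkb1, Serpina5, Serpinf2 and Vtn did not pass the filter.

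In the serpin family as a whole, 47 genes beside the members were in the counts and 21 were tested. Of these, 6 rose and 1 fell (28.6% and 4.76%), where 14.6% and 14.1% of all genes tested did. The median log2 fold change was 0.0537. Without vehicle replicate 3 or BI replicate 4, 3 rose. The list shares Serping1, among the genes that rose, with the one above. Serpina3n, which inhibits proteases of immune cells, went from 8.85 ± 2.15 to 23.5 ± 8.11 CPM (log2 fold change 1.39, SE 0.269, adjusted p = 0.00279). Serpina3h was less changed (0.49, SE 0.0896, adjusted p = 0.00206), and both belong to a cluster of near-identical genes among which reads are uncertain. The most abundant serpin, the collagen chaperone Serpinh1 at 294 RPKM, did not pass the test (-0.19, adjusted p = 0.141). Each BI-treated tumor nevertheless lay below each vehicle-treated one in Serpinh1 (556 to 748 against 772 to 797 CPM).

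Of the genes of coagulation around F3, 16 of 24 were tested, and 3 rose and 3 fell (18.8% each). This is close to the shares of all genes tested, 14.6% and 14.1%, so nothing is read from these counts. The median log2 fold change was 0.0339. The genes that fell encode receptors cut by thrombin or related proteases. F2r, the thrombin receptor PAR1, went from 231 ± 21.2 to 173 ± 17.5 CPM (log2 fold change -0.41, SE 0.0870, adjusted p = 0.00475). F2rl1, the gene of PAR2, a receptor for trypsin-like proteases and the complex of tissue factor with factor VIIa, went from 30.1 ± 4.76 to 12.1 ± 3.89 CPM (-1.31, SE 0.229, adjusted p = 0.00153). F2rl2 had few reads and was called with an adjusted p of 0.0395 (-0.76, SE 0.250), which held in 1 of 9 fits with a tumor left out. Fgl2, a prothrombinase of macrophages and other immune cells, rose from 118 ± 11.8 to 261 ± 29.3 CPM (1.15, SE 0.0998, adjusted p = 2.77e-05). Pros1, a cofactor of protein C, rose by 0.57 (SE 0.131, adjusted p = 0.00756), and F13a1, the fibrin-crosslinking subunit found in macrophages, by 0.88 (SE 0.216, adjusted p = 0.0102). The F13a1 call was lost without vehicle replicate 1 or vehicle replicate 3 (adjusted p at most 0.0596). The macrophage markers described above rose in the same tumors, and their part in Fgl2 and F13a1 was not tested.

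The families of Anxa2 and S100a10 leaned towards lower levels. Of 27 listed genes, 20 were tested. Of these, 2 rose and 8 fell (10% and 40%), where 14.6% and 14.1% of all genes tested did. The 8 include Ahnak (-0.28, adjusted p = 0.0170), which is neither an annexin nor an S100 gene. The median log2 fold change of the list was -0.323. Without vehicle replicate 1 or 2, 5 fell. Anxa1, an annexin with anti-inflammatory action that is abundant in epithelium and neutrophils, went from 560 ± 14 to 423 ± 21.7 CPM (-0.41, SE 0.0593, adjusted p = 0.000487). Anxa3 went from 192 ± 8.57 to 120 ± 14.8 CPM (-0.67, SE 0.0935, adjusted p = 0.000368). S100a9, a subunit of calprotectin and a neutrophil gene, went from 384 ± 72.6 to 156 ± 34.8 CPM (-1.30, SE 0.169, adjusted p = 0.000236). S100a8 and S100a9 are in the neutrophil list too, whose summed level was lower in BI-treated tumors, and the part of neutrophils in these falls was not tested. Against this direction, S100a1 rose by 0.47 (SE 0.0745, adjusted p = 0.000810) and S100a13 by 0.48 (SE 0.113, adjusted p = 0.00837). The most abundant gene of the list, S100a4 at 1333 RPKM, was not called (-0.16, adjusted p = 0.537).

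The last list held 26 genes, those of AP-1 and ETS factors and Egr1, which is of neither family. Sites for AP-1 and ETS factors are known in the regulatory regions of urokinase and its receptor. All 26 were tested, and 5 rose and 7 fell (19.2% and 26.9%), where 14.6% and 14.1% of all genes tested did. Egr1 was among the 7 that fell (-0.34, adjusted p = 0.0216). The median log2 fold change of the list was -0.0645. Without vehicle replicate 1, 3 fell. Fosl1, the AP-1 subunit FRA-1, went from 72.6 ± 5.04 to 41.2 ± 7.80 CPM (-0.82, SE 0.128, adjusted p = 0.000763), and no BI-treated tumor reached the vehicle-treated tumors. Maff, a small MAF protein that pairs with related factors (-0.74, SE 0.110, adjusted p = 0.000549), and Ets1 (-0.52, SE 0.0639, adjusted p = 0.000166) were lower as well. Among the genes that rose, Batf, an AP-1 factor of lymphocytes and dendritic cells, had a log2 fold change of 0.99 (SE 0.114, adjusted p = 0.000113), Fli1 of 0.86 (SE 0.0788, adjusted p = 3.68e-05) and Spi1, the myeloid factor PU.1, of 0.73 (SE 0.115, adjusted p = 0.000803). Junb, the most abundant gene of the list at 62.9 RPKM, was not called (-0.20, adjusted p = 0.294). Whether these factors bear on the members, by the matches printed above or otherwise, was not tested.

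**Figure D5:**
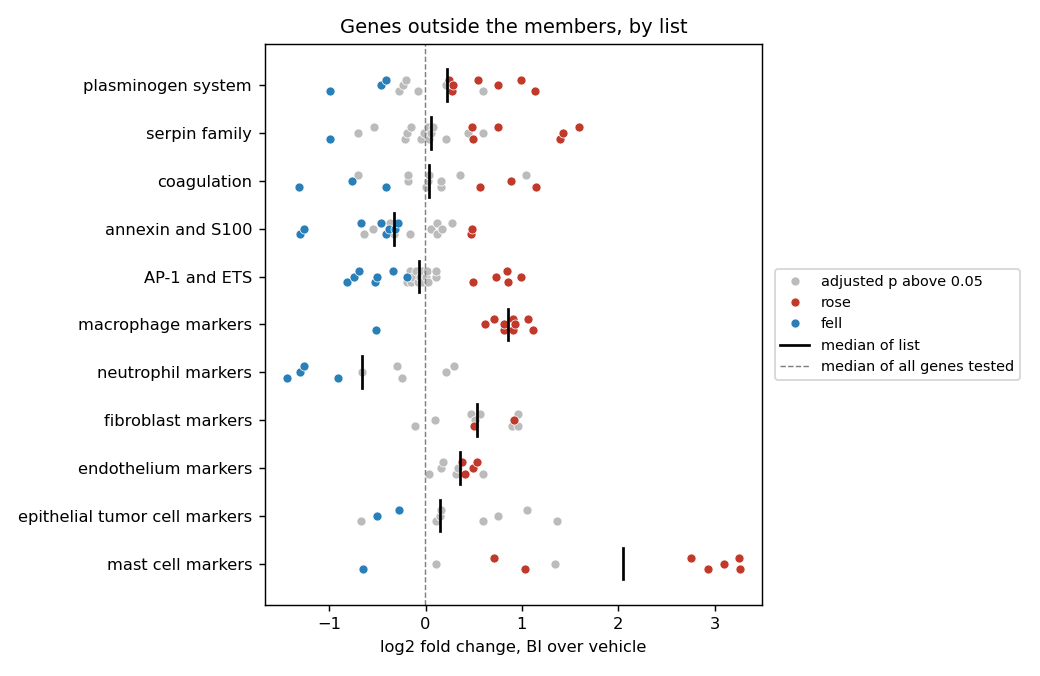
Log2 fold change of BI-treated over vehicle-treated tumors for each gene tested in the lists outside the members, with genes that rose in red, genes that fell in blue and the rest in grey. Black ticks are list medians, from -0.656 for neutrophil markers to 2.05 for mast cell markers, and the dashed line is the median of all genes tested, -0.00371.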

How the data were processed

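Stranded messenger RNA libraries of 9 snap-frozen 4T1 tumors were sequenced with paired ends. Reads were aligned to mm9 with STAR by the authors, who kept unique hits and used QuasR to count reads starting in an exon of a RefSeq gene. They deposited raw counts for 18755 genes without normalization, and a gene length, used here for RPKM. They retained tumors with sufficient RNA quality. Whether strand or both mates entered the counting is not given in the sources used here, and no batch is named. Groups followed the labelled agent. No source says more than that these are separate tumors, whose spread the p-values measure.

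Entrez identifiers were matched to RefSeq symbols for 18700 of 18755 genes, and mm9 positions were taken from a GENCODE annotation. The members and the gene lists were chosen with earlier results of these data known. Counts were normalized with TMM in edgeR 4.0.16 (R 4.3.3), filtered with filterByExpr (minimum count 10, minimum total 15), and tested with the quasi-likelihood test of BI 853520 against vehicle without covariates, with Benjamini-Hochberg adjustment over 13966 genes and a threshold of 0.05. "Rose" and "fell" refer to this test. It was also run on simulated counts, in which each gene had the spread typical of its level. Genes as variable as Serpinb2 and Serpine2 are not covered by that run. Log2 CPM used a prior count of 2. Between pairs of tumors the chi-square per gene was above 1 throughout, so that none was a repeat of another. Floors cover counting error only. Of each list, the 3 genes with the smallest p in each direction and the most abundant gene are named, and Plg, Plgrkt and Lrp1 whatever their values, as are the 2 genes most like each member. A few genes that the rule would name are left out. Ahnak and Egr1 are mentioned only because they lie outside the families of their lists. The deposited table holds no columns of the authors' comparisons. Alternatives were RLE factors, no filter, a filter of 1 CPM in 3 tumors, DESeq2 1.42.0, limma-voom (limma 3.58.1), a prior count of 0.5, Spearman's rho, CPM without length and leaving out each tumor.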

Additional observations from a re-analysis of the deposited data

Results flagged for a closer look

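The values of the 6 BI-treated tumors were examined in 45 series, which included 1 for each member and each named gene outside them. In 4 series a tumor's gap to its nearest neighbour took up more of the whole range than Dixon's 95% critical value allows. Chance marks about 1 in 20 such series. In Plau, BI replicate 1 lay at 302.7 CPM, below the other tumors at 348.7 to 370.0 CPM (ratio of the gap to the range 0.683). In Serpine2, BI replicate 3 lay at 239.5 CPM, above the others at 65.15 to 116.9 CPM (0.703). In F2rl2, BI replicate 1 lay at 3.827 CPM, above the others at 1.709 to 2.203 CPM (0.767), and within the range of the vehicle-treated tumors. In Anxa1, BI replicate 3 lay at 464.0 CPM, above the others at 405.1 to 424.5 CPM (0.670), and below all vehicle-treated tumors.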

How the results depend on the processing

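The 4 calls among the members were made under RLE factors, without a filter, with the 1 CPM filter, with DESeq2 and with limma-voom. The other counts of genes that rose or fell kept within 1.5 times under these 5 settings, with the exceptions that 5 fibroblast markers rose without a filter, 1 epithelial marker rose with DESeq2 and 1 fell with the 1 CPM filter, which tests fewer genes. Without the 2 tumors farthest from the median, r changed sign to 0.355 for Plat and Serpine2 and to -0.152 for Plat and Serpinb2. By CPM without length, 4 of 8 members kept their place in the order. S100a4 ranged from -0.27 to 0.0051 with single tumors left out, the latter without vehicle replicate 1. The cause of the other shifts was not tested. With each tumor left out in turn, 2 to 4 members were called lower (2 without vehicle replicate 1 or vehicle replicate 2). The log2 fold change was -0.62 to -0.51 for Plau, -0.48 to -0.32 for Plaur, -0.07 to 0.11 for Plat, 0.38 to 0.95 for Serpine2, -2.45 to -1.14 for Serpinb2, -0.39 to -0.24 for F3, -0.42 to -0.31 for Anxa2 and -0.07 to 0.12 for S100a10. Counts that rose and that fell were 4 to 7 and 3 to 4 for the plasminogen list and 3 to 5 and 1 to 1 for serpins. They were 2 to 3 and 2 to 3 for coagulation. For the annexin and S100 list with Ahnak they were 2 to 3 and 5 to 8. For the AP-1 and ETS list with Egr1 they were 4 to 6 and 3 to 6. For markers, 7 to 9 rose in macrophage, 0 to 5 in fibroblast, 0 to 6 in endothelial, 0 to 2 in epithelial and 6 to 8 in mast cell lists, and 4 to 5 fell in neutrophil, 1 to 2 in epithelial and 0 to 1 in mast cell lists. With 3 vehicle-treated tumors, 1 of them can decide a call, as it did for Plaur and Anxa2, and reads were fewest in F3 and Serpinb2, at 43 to 529 per tumor. No paired analysis was possible because the labels give no number or animal that the groups share.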

Other observations

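Over the 6 BI-treated tumors, all 28 pairs of members were also correlated, a choice made after the 7 pairs of partners had been seen. An exact permutation p of at most 0.05 was found for 4 pairs, and 0 pairs had an adjusted p of at most 0.05 over the 28. Beside Anxa2 and S100a10, these were Plaur and S100a10 (r = 0.946, exact permutation p = 0.0139, adjusted 0.181, rho 0.771), Plaur and Anxa2 (r = 0.913, exact permutation p = 0.0194, adjusted 0.181, rho 0.714), and Serpine2 and Serpinb2 (r = -0.873, exact permutation p = 0.0292, adjusted 0.204). The first 3 of these pairs share Plaur, Anxa2 and S100a10, so that they are not independent of each other. BI replicate 3, the tumor highest in Serpine2 at 239.5 CPM, was the lowest in Serpinb2 at 2.08 CPM and in Plat at 28.5 CPM, and BI replicate 6 was the highest in Plaur, F3, Anxa2 and S100a10.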
